A study of Homo sapiens with 3 samples.

Results

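Spindlin1 is a chromatin protein whose Tudor-like domains read methylated tails of histone H3, above all the trimethylated lysine found at active promoters, and it is known as a coactivator of Wnt target genes. C11orf84, also called SPINDOC, is a protein known to bind Spindlin1. Chromatin immunoprecipitation followed by sequencing (ChIP-seq) recovers the DNA to which a protein is crosslinked, and a peak is a stretch where that DNA piles up above a local background. Where peaks are crowded, intervals of a pair of lists can meet merely because both lists are dense, so the places where a Spindlin1 peak stands alone are of interest of their own.

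The regions described here are the Spindlin1 peaks of chromosomes 1 to 22 whose summit, the base of highest pile-up, had no other Spindlin1 summit within 50 kb on either side and whose interval shared at least 1 bp with a C11orf84 peak. Of 152617 Spindlin1 peaks on these chromosomes, 4548 (2.98%) were isolated in this sense, and 1825 of the isolated peaks overlapped C11orf84. The other 2723 isolated peaks had no overlap and are the set against which the shared ones are described. The members were chosen by the positions of the Spindlin1 summits and by the C11orf84 overlap, so neither their number nor the overlap itself is a finding.

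The cells were U2OS, a human osteosarcoma line, left untreated, and the samples were a ChIP-seq library with an antibody against Spindlin1, a library with an antibody against C11orf84, and an Input library without antibody. The purpose was to map both proteins across the genome. Each sample was 1 library of 1 cell line, so there is no replicate check, no p-value is given, and every interval below is an exact Clopper-Pearson 95% interval that covers counting error only. Positions are in hg19 and are counted from 1. No hg19 gene annotation or genome sequence was used, so the regions are named by position alone.

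Each peak carries the authors' fold enrichment of its summit over the local background and a −log10 q-value. The number of fragments over the summit (summit depth) and the background in fragments were recovered from the deposited fold and −log10 p. Background is given as a multiple of the floor, the lowest background of a list, and is called raised at 2 times the floor or more. Total read numbers are unknown.

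Among isolated Spindlin1 peaks, 40.1% (38.7 to 41.6) overlapped C11orf84. Over all Spindlin1 peaks of these chromosomes the share was 69.8%, and over those that were not isolated it was 70.7% (70.5 to 70.9). Isolated peaks were thus shared less often than the rest by 30.6 percentage points, with a counting interval of the difference of −32.0 to −29.1. With summits at most 200 bp apart in place of an overlap, the shares were 36.0% of isolated peaks and 55.7% of the others (55.1% over all). With at least 50% of both intervals covered they were 32.3% of isolated peaks and 48.1% of the others (47.6% over all). The C11orf84 list gave the same order when read from its own side. Of its 4408 isolated peaks, 36.3% (34.8 to 37.7) overlapped Spindlin1, against 58.3% (58.0 to 58.5) of its peaks that were not isolated and 57.7% of all of them.

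C11orf84 was sparse around isolated Spindlin1 peaks except at the peak itself. C11orf84 intervals held 36.2% of the 4548 isolated Spindlin1 summits, whereas they covered 0.160% of the bases between 1 and 50 kb from those summits. For Spindlin1 peaks that were not isolated, they held 64.5% of the summits and covered 14.3% of the bases at the same distances. The flanks of an isolated peak hold no other Spindlin1 summit by the rule, which bears on how many C11orf84 peaks they can be expected to hold. Flank coverage was much alike around shared and unshared isolated summits, at 0.170% and 0.154%.

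Counted by distance, C11orf84 summits stood at 1.45 per kb within 100 bp of an isolated Spindlin1 summit. The density was 0.351 per kb at 100 to 200 bp, 0.167 at 200 to 500 bp, 0.0642 at 500 to 1000 bp and 0.0240 at 1 to 2 kb. From 2 to 5 kb it was 0.00814 per kb, and between 20 and 50 kb it was 0.00668 per kb. The excess over the outer flanks therefore lay almost wholly within 2 kb. It was higher for deeper Spindlin1 summits. Within 100 bp the density was 0.696 per kb around summits of 6 to 9 fragments, 1.54 around those of 10 to 14 and 2.86 around those of 15 or more. Between 20 and 50 kb the densities of these 3 groups were 0.00630, 0.00685 and 0.00690 per kb.

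**Figure D1:**
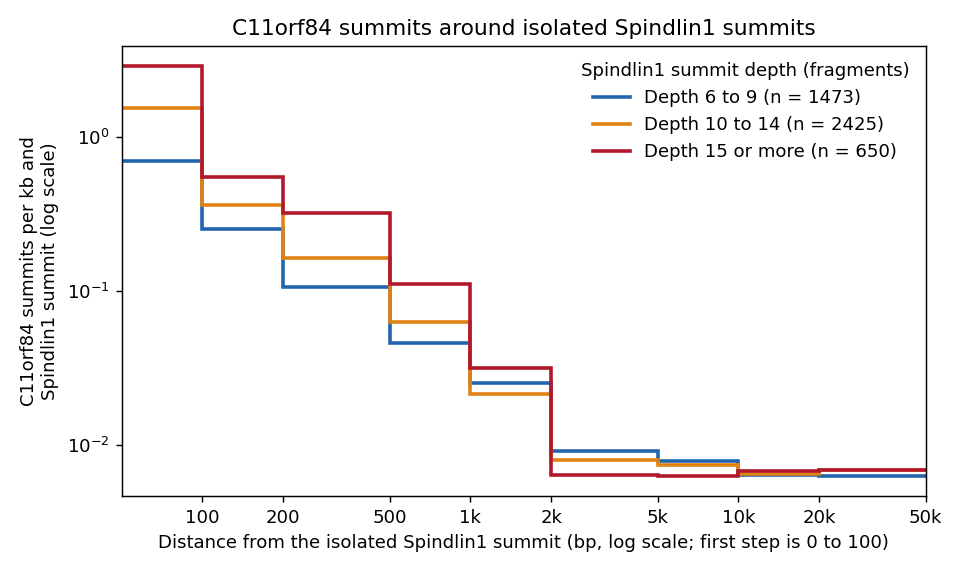
C11orf84 summits per kb and per Spindlin1 summit (vertical, log scale) against distance from the isolated Spindlin1 summit in bp (horizontal, log scale), for 3 groups of Spindlin1 summit depth. The 3 lines are separate within 1 kb, from 0.696 to 2.86 per kb in the first 100 bp, and lie together near 0.007 per kb beyond 10 kb.

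Around isolated summits without overlap the rule itself removes C11orf84 summits close by, so their density there cannot be set against that around shared ones. Beyond 200 bp it was still above the outer flanks. The density of C11orf84 summits was 0.0655 per kb at 200 to 500 bp, 0.0360 at 500 to 1000 bp and 0.0169 at 1 to 2 kb, against 0.00660 at 20 to 50 kb. Of the unshared isolated peaks, 218 (8.01%, 7.01 to 9.09) had a C11orf84 interval within 1 kb and 84 (3.08%) within 200 bp. At the other extreme, 1475 of them (54.2%, 52.3 to 56.1) had no C11orf84 summit within 50 kb, and 683 (25.1%) had no C11orf84 interval within 100 kb.

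Sharing rose steeply with the summit depth of the isolated Spindlin1 peak. Of isolated peaks with 6 or 7 fragments, 12.3% (8.49 to 17.2) overlapped C11orf84. The share was 30.1% (26.9 to 33.6) at 10 fragments, 48.2% (43.6 to 52.9) at 12, 66.5% (58.8 to 73.5) at 15, and 90.0% (83.2 to 94.7) at 20 to 24. At 25 or more fragments 21 of 22 isolated peaks were shared. The difference between isolated peaks of 15 or more fragments and those of at most 9 was 57.3 percentage points (53.3 to 61.0).

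Isolated peaks were shared less often than other Spindlin1 peaks at the same depth, and the difference was smaller in deeper peaks. At 6 or 7 fragments the shares were 12.3% of isolated peaks and 50.1% of the others, a difference of −37.7 percentage points (−41.9 to −32.7). At 12 fragments they were 48.2% and 72.2%, a difference of −23.9 points (−28.6 to −19.2). At 20 to 24 fragments they were 90.0% and 92.8%, and the interval of the difference, −9.62 to 2.02 points, included 0. The share of isolated peaks was the lower one in 13 of 13 depth groups. When the other peaks were weighted to the depths of the isolated ones, their share was 67.3%, 3.35 points below their unweighted share.

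**Figure D2:**
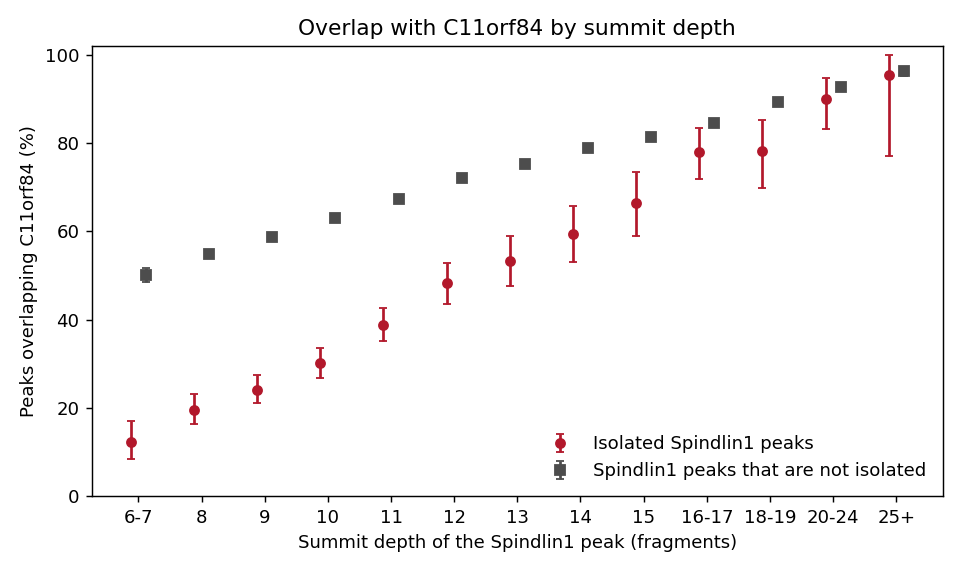
Percentage of Spindlin1 peaks overlapping a C11orf84 peak (vertical) by recovered summit depth in fragments (horizontal), for isolated peaks (circles) and peaks that are not isolated (squares); bars are 95% counting intervals. Isolated peaks go from 12.3% at 6 or 7 fragments to 90.0% at 20 to 24, and the others from 50.1% to 92.8%.

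Shared isolated peaks had deeper summits, wider intervals and a higher fold at the median than unshared ones, as did shared peaks among those that were not isolated. Their Spindlin1 summit depth had a median of 12 fragments (interquartile range 10 to 15, highest 67), against 10 (9 to 11, highest 25) in unshared isolated peaks. Their fold had a median of 5.72 (5.05 to 6.67), against 5.13 (4.62 to 5.87). With both lists first reduced to a −log10 q of 10 or higher and isolation measured anew, the difference of the median folds was 0. That comparison held 895 shared and 1959 unshared peaks, which are other sets than those described here. Among peaks that were not isolated, shared and unshared ones had median depths of 12 and 11 fragments, widths of 264 and 192 bp and folds of 6.14 and 5.56. In 214 shared isolated peaks (11.7%) and 56 unshared isolated ones (2.06%) of the full list the −log10 q was 10 or higher. Depths of shared and unshared isolated peaks overlapped from 6 to 25 fragments, and all deeper isolated peaks were shared. At 20 fragments or more, 129 isolated peaks were shared and 13 were not.

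Width separated the sets further. The Spindlin1 interval had a median width of 244 bp (186 to 374) in shared isolated peaks and 182 bp (172 to 218) in unshared ones. The narrowest width in the list, 172 bp, was found in 261 shared isolated peaks (14.3%) and 1042 unshared ones (38.3%). All 117 isolated peaks of 600 bp or more overlapped C11orf84, as did 280 of 297 (94.3%, 91.0 to 96.6) of those of 400 to 599 bp. A wide interval has more room to meet another one. The share with summits at most 200 bp apart, which does not use the width, also rose, from 19.7% (17.6 to 21.99) of isolated peaks of 172 bp to 71.0% (66.4 to 75.3) of those of 400 bp or more.

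Width and sharing went together at equal depth as well. Among isolated peaks of 10 to 12 fragments, overlap was found in 26.3% (22.7 to 30.1) of those of 172 bp and 31.0% (28.0 to 34.2) of those of 173 to 249 bp. It was found in 58.3% (52.8 to 63.8) of those of 250 to 399 bp and in 92 of 96 (95.8%, 89.7 to 98.9) of those of 400 bp or more. With summits at most 200 bp apart these shares were 25.9%, 29.9%, 48.8% and 68.8%.

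**Figure D3:**
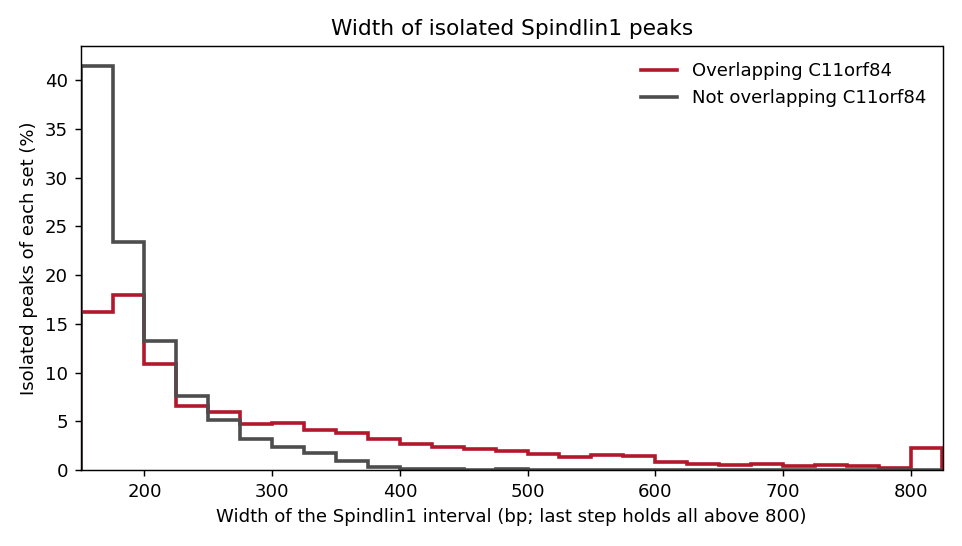
Percentage of isolated Spindlin1 peaks (vertical) by interval width in steps of 25 bp (horizontal), for peaks that overlap C11orf84 and peaks that do not. Unshared peaks gather near the smallest width of 172 bp, and shared peaks have a median of 244 bp with a tail past 600 bp.

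Shared isolated peaks stood more often on a raised background. It was raised at 292 shared peaks (16%, 14.3 to 17.8) and at 100 unshared ones (3.67%, 2.998 to 4.45). It was at the floor in 610 shared peaks (33.4%) and 1395 unshared ones (51.2%). Read the other way, 74.5% (69.9 to 78.7) of isolated peaks on a raised background were shared, 42.9% (40.8 to 45.0) of those above the floor but under 2 times it, and 30.4% (28.4 to 32.5) of those at the floor. For peaks that were not isolated the shares were 79.3%, 70.6% and 69.2%. Depth and background move together. Within 10 or 11 fragments, the share of isolated peaks was 47.2% (30.4 to 64.5) on raised background, 35.0% (31.3 to 38.8) in between and 32.9% (29.5 to 36.4) at the floor. At 12 or 13 fragments these shares were 65.4% (50.9 to 78.0), 50.5% (45.9 to 55.2) and 46.9% (40.7 to 53.2). At 14 to 16 fragments they were 69.7% (60.7 to 77.8), 67.4% (62.1 to 72.3) and 55.4% (44.7 to 65.8). The part that the background plays in the overlap was not tested.

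Among peaks at the floor, where all Spindlin1 peaks are set against 1 background, isolated peaks were also shared less often than the others up to 15 fragments, and the rise with depth was uneven. Isolated peaks at the floor were shared in 14.5% (9.49 to 20.7) of cases at 6 or 7 fragments, in 27.8% (23.5 to 32.5) at 10 and in 48.3% (40.8 to 55.9) at 12. The peaks that were not isolated had 51.9%, 64.3% and 74.8%. At 13 fragments the isolated share was 43.9% (33.0 to 55.3), below that at 12, and at 15 fragments it was 9 of 22 (40.9%, 20.7 to 63.6), against 87.2% of the others. That difference, −46.3 percentage points (−66.6 to −23.6), was greater in size than the −37.5 points at 6 or 7 fragments, with overlapping intervals, so a steady narrowing of the gap was not seen at the floor. At 16 or 17 fragments, 16 of 19 isolated peaks at the floor were shared. Of the 120 isolated peaks with 20 to 24 fragments only 3 stood at the floor, and of the 22 with 25 or more 0 did. The small difference in the deepest groups over all backgrounds thus rests on isolated peaks above the floor.

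The summits of both proteins lay close together in shared isolated regions. The Spindlin1 summit was at a median of 43 bp (17 to 108, farthest 736) from the nearest C11orf84 summit. Closeness was not particular to these regions. In shared peaks that were not isolated the median was 59 bp (21 to 173), with a median Spindlin1 width of 264 bp. In the shared isolated regions the distance was at most 50 bp in 996 (54.6%), at most 200 bp in 1631 (89.4%) and 0 in 45. Signed along the reference strand, the median offset was 0 (quartiles −43 and 44 bp). Overlap keeps this distance short by itself in intervals with median widths of 244 bp for Spindlin1 and 263 bp for C11orf84. The median distance was 61 bp at 6 to 9 Spindlin1 fragments, 39 bp at 10 or 11, 44 bp at 12 to 14, 40 bp at 15 to 19 and 32 bp at 20 or more. The part within 200 bp did not rise with depth, at 91.1%, 89.6%, 90.1%, 86.7% and 89.1% in the same order.

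Most regions held a single interval of each list. A single C11orf84 interval was met by 1746 shared isolated peaks (95.7%), 77 met 2, and 2 met at least 3. The C11orf84 peaks of largest overlap were 1825 different ones. The overlap had a median of 194 bp (172 to 294). The Spindlin1 interval lay wholly inside the C11orf84 interval in 534 regions (29.3%) and wholly contained it in 239 (13.1%).

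The C11orf84 peaks over these regions were of ordinary strength for their list. Over the shared regions the C11orf84 fold had a median of 5.82 (4.91 to 6.68) and the depth a median of 13 fragments (11 to 16). Over all C11orf84 peaks these were 5.89 (4.91 to 6.87) and 12 (10 to 15). The C11orf84 summit was the deeper one in 928 regions (50.8%) and the Spindlin1 summit in 659, with 238 equal. The ratio of C11orf84 to Spindlin1 depth had a median of 1.06 (0.900 to 1.25), and the ratio of the folds one of 0.986 (0.854 to 1.18). The floor was also higher in the C11orf84 list, at 1.04 fragments against 0.949 for Spindlin1. Total read numbers of both libraries are unknown, so these ratios do not compare the proteins.

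C11orf84 depth followed Spindlin1 depth across the regions. Its median was 10 fragments at 6 to 9 Spindlin1 fragments, 12 at 10 or 11, 13 at 12 to 14, 16 at 15 to 19 and 19 at 20 or more. Over all 1825 regions the correlation of the depths was 0.71 (Pearson) and 0.61 (Spearman). The backgrounds of the lists were themselves correlated, at 0.85 (Pearson) and 0.87 (Spearman). At some regions the background multiple was the same in both lists, as on chromosome 6 (1.86507) and chromosome 18 (1.07978). At others it differed, as on chromosome 16 (1.71212 for Spindlin1 and 1.63602 for C11orf84). The backgrounds therefore cannot be taken as separate measurements, and whether both lists used the same control was not tested. In the 1450 regions where neither background was raised, the correlation of the depths was 0.52 (Pearson) and 0.48 (Spearman). In the 527 regions where both backgrounds were at the floor, it was 0.31 (Pearson) and 0.28 (Spearman). The correlation of the folds over all 1825 regions was 0.33 (Pearson) and 0.29 (Spearman). The regions share a library for each protein, so these values describe the 2 libraries.

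**Figure D4:**
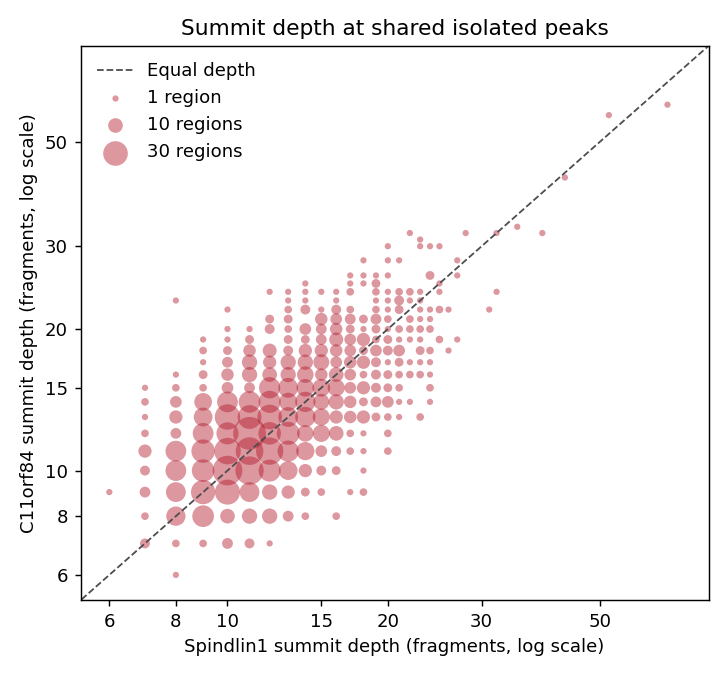
Summit depth of C11orf84 (vertical) against summit depth of Spindlin1 (horizontal) at the 1825 shared isolated regions, both in fragments on log scales; the area of a circle grows with the number of regions at that pair of values, and the dashed line marks equal depth. Regions lie on both sides of the line, with C11orf84 the deeper in 928 and Spindlin1 in 659, and few regions reach 30 fragments in either list.

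The C11orf84 peaks over shared isolated regions were isolated far more often than their list, though many were not isolated. By the same 50 kb measure, 802 of 1825 (43.9%, 41.7 to 46.3) were isolated, against 4408 of all 176515 C11orf84 peaks (2.50%). The rule keeps other Spindlin1 summits out of the flanks, which bears on this share. In 803 of 1825 shared regions (44.0%, 41.7 to 46.3) there was 1 C11orf84 summit within 50 kb of the Spindlin1 summit, so that a single peak of each protein stood alone. The others had 2 to 8. The nearest other C11orf84 summit lay within 5 kb of the overlapping one in 477 regions (26.1%). Regions with a lone C11orf84 peak and regions with further ones were much alike in strength. The Spindlin1 peak had a median fold of 5.79 and 12 fragments where the C11orf84 peak was itself isolated by the same 50 kb measure (802 regions), and 5.67 and 12 fragments in the other 1023. Summit distances had medians of 39 and 45 bp in these sets.

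The shared fraction differed little with the distance to the nearest other Spindlin1 summit up to 200 kb and had lower values beyond. It was 41.1% (39.2 to 43.0) where that summit lay 50 to 100 kb away, 40.6% (38.0 to 43.4) at 100 to 200 kb and 35.8% (31.6 to 40.1) at 200 to 500 kb. Beyond 500 kb it was 24 of 84 (28.6%, 19.2 to 39.5). Counting intervals of neighbouring groups overlapped. Within 9 to 11 fragments the shares were 31.4%, 30.4%, 31.0% and 23.5% in the same order, and all 4 intervals overlapped.

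Shared isolated regions were spread thinly, and the rule itself keeps them few wherever Spindlin1 peaks are dense. They averaged 0.654 per Mb, with a median of 764 kb between neighbours, and at most 6 lay in a window of 1 Mb. Of 2655 windows of 1 Mb with any Spindlin1 peak, 1217 had a shared isolated region and 775 had exactly 1. Chromosome 2 had the highest number, 176, followed by chromosome 4 (171), chromosome 3 (163) and chromosome 1 (147). Per Mb the highest values were on chromosome 4 (0.896), chromosome 3 (0.825) and chromosome 6 (0.809). Chromosome 22 held 3 of them, chromosome 19 held 9 and chromosome 21 held 16.

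The isolated fraction of the Spindlin1 list varied widely between chromosomes. On chromosome 4, 10.6% of Spindlin1 peaks were isolated, and on chromosome 13 8.26%, against 0.454% on chromosome 19 and 0.105% on chromosome 22. The shared part of the isolated peaks varied less, between 22.9% (13.7 to 34.4) on chromosome 21 and 48.5% (38.4 to 58.7) on chromosome 15. On chromosome 21, with 16 of 70 isolated peaks shared, the interval stayed below the 40.1% of all isolated peaks. It was singled out as the lowest of 22 after the values were seen, and the intervals of all other chromosomes included 40.1%. Chromosome 21 also had the lowest share among peaks that were not isolated, 55.0%. On each of the 22 chromosomes isolated peaks were shared less often than the others.

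**Figure D5:**
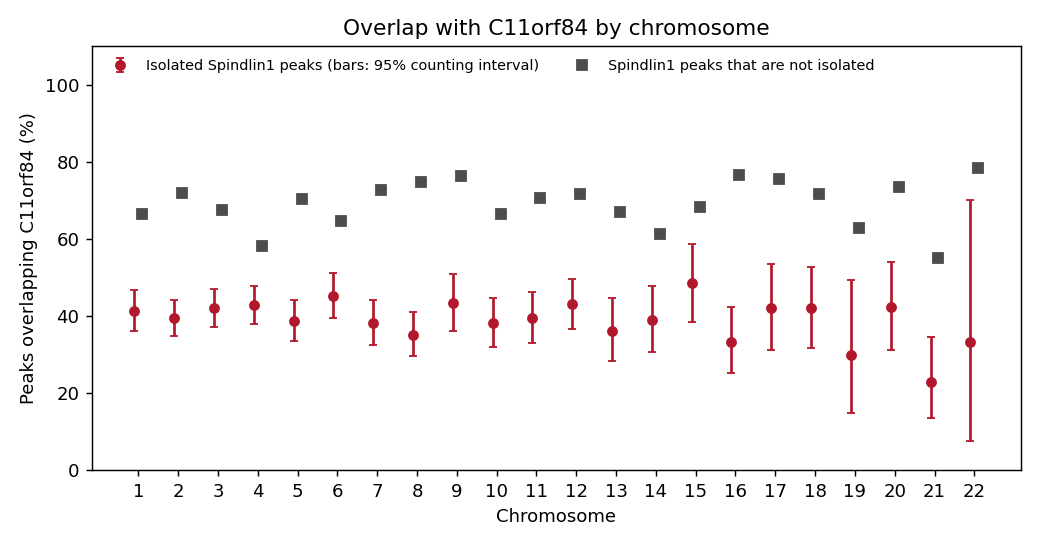
Percentage of Spindlin1 peaks overlapping C11orf84 (vertical) on each chromosome (horizontal), for isolated peaks with 95% counting intervals (circles) and for peaks that are not isolated (squares). Every circle lies below its square, and circles range from 22.9% on chromosome 21 to 48.5% on chromosome 15.

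Chromosome ends are dense in Spindlin1 peaks, so the rule itself leaves few isolated ones there. The outermost 5 Mb at each end, measured from the first and last peak of a chromosome, held 63 shared isolated peaks (3.45%) and 129 unshared ones (4.74%), in 7.88% of the length. The same stretches held 29.7% of Spindlin1 peaks that were not isolated. Isolated peaks were shared in 32.8% (26.2 to 39.9) of cases at the ends and in 40.5% (39.0 to 41.9) elsewhere.

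The shared isolated region of highest Spindlin1 fold lay on chromosome 6 (131949017 to 131949605). That fold was 12.999 at 35 fragments, rank 75 in the whole list, and its C11orf84 fold was 11.6 at 33 fragments. The background was 1.87 times the floor in both lists, the summits were 8 bp apart, and the nearest other Spindlin1 summit was 69.8 kb away. A single C11orf84 summit stood within 50 kb.

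The next 3 regions by Spindlin1 fold stood at the floor of the Spindlin1 list. On chromosome 4 (120375736 to 120376031) the Spindlin1 fold was 12.8 at 24 fragments and the C11orf84 fold 7.36 at 14 fragments, with summits 10 bp apart. Chromosome 20 (1447389 to 1447739) had the same Spindlin1 fold, and a C11orf84 fold of 8.84 at 17 fragments, with summits 1 bp apart. Chromosome 5 (95194489 to 95194744) had a Spindlin1 fold of 12.3 and a C11orf84 fold of 11.3, both at 23 fragments. These 4 regions each had 1 C11orf84 summit within 50 kb. The nearest other Spindlin1 summits of the last 3 lay 154, 154 and 103 kb away.

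The other 6 of the 10 highest were on chromosome 16 (33293755 to 33294352, fold 11.1), chromosome 2 (23167106 to 23167339, fold 10.6, and 158186105 to 158186342, fold 10.5), chromosome 13 (45915193 to 45915602, fold 10.3), chromosome 10 (121356263 to 121356471, fold 10.1) and chromosome 18 (48494222 to 48494796, fold 10.1). Their C11orf84 folds were uneven. The chromosome 16 region had the highest C11orf84 fold of all shared isolated regions, 12.2 at 32 fragments, with a summit 132 bp away. The second chromosome 2 region and the chromosome 18 region had C11orf84 folds of 5.72 and 5.63, both at 11 fragments. Fold ranks within the whole Spindlin1 list were between 75 and 1842 for the 10 regions.

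Regions of high C11orf84 fold were not always strong in Spindlin1. The second highest C11orf84 fold, 11.8 at 23 fragments, was on chromosome 4 (4642488 to 4642717), where the Spindlin1 fold was 4.62 at 8 fragments and both backgrounds were at the floor. On chromosome 18 (33077666 to 33077922) the C11orf84 fold was 11.3 at 23 fragments and the Spindlin1 fold 6.92 at 13. On chromosome 2 (193467538 to 193467727) they were 11.3 at 22 fragments and 7.18 at 13. The summits were 11, 31 and 31 bp apart.

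Strong isolated Spindlin1 peaks without overlap were of similar fold to the tenth shared one. The highest was on chromosome 1 (210111626 to 210111915) with a fold of 10.4 at 21 fragments, and a C11orf84 interval lay 252 bp away. On chromosome 2 (98025095 to 98025296) the fold was 10.3 at 19 fragments, and the nearest C11orf84 interval was 10357 bp away. The next were on chromosome 11 (115905524 to 115905742), chromosome 3 (21107199 to 21107416) and chromosome 7 (53808605 to 53808826), each with a fold of 10.1 at 20 fragments, at 37877, 160260 and 46732 bp from C11orf84. Where no C11orf84 interval is listed, no peak was called at the depth of that library, and a lower level of the protein cannot be read.

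The unshared isolated peaks farthest from C11orf84 were shallow. They lay on chromosome 12 (73629348 to 73629535, 8 fragments), chromosome 13 (72420602 to 72420797, 9 fragments) and chromosome 1 (198918537 to 198918708, 8 fragments), at 935121, 880382 and 791823 bp from a C11orf84 interval. All 3 stood at the floor.

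The most isolated shared region was on chromosome 5 (99871097 to 99871563), 1513 kb from the nearest other Spindlin1 summit, with 9 Spindlin1 fragments (fold 5.13) and 14 C11orf84 fragments (fold 7.36). The second, on chromosome 18 (50319023 to 50319332), was 1448 kb from its neighbour. It had 39 Spindlin1 and 32 C11orf84 fragments over backgrounds of 6.28 and 5.999 times the floor, so its folds were 5.75 and 4.57. The third was on chromosome 7 (144532975 to 144533281), at 934 kb, with 16 Spindlin1 and 14 C11orf84 fragments.

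The deepest regions stood on high background. The region of chromosome 5 at 71146627 to 71147034 had 67 Spindlin1 and 60 C11orf84 fragments on 8.56 and 8.18 times the floor, with summits 2 bp apart. On chromosome 16 (14580783 to 14581082) there were 52 and 57 fragments over 13.1 and 13.6 times the floor, and on chromosome 10 (135500566 to 135501222) 43 and 42 fragments over 13.7 and 6.54 times. These were chosen after their values were seen. Reads of repeats collapsed in the assembly and binding cannot be told apart at such places. At the floor in Spindlin1, the deepest shared isolated regions were those on chromosomes 4 and 20 with 24 fragments.

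The shared peaks nearest to the 50 kb limit from inside were a pair on chromosome 5, at 41241088 to 41241371 and 41291108 to 41291414, whose summits are 50021 bp apart, with 10 and 13 Spindlin1 fragments. The next was also on chromosome 5 (13331657 to 13332043), at 50045 bp with 15 fragments. Just outside were shared peaks on chromosome 8 (96281120 to 96281420), chromosome 1 (92117248 to 92117464) and chromosome 10 (60785672 to 60786031), at 49934, 49930 and 49928 bp, with 14, 10 and 12 fragments. The chromosome 8 peak had a low fold, 3.53, rank 151623 in the list, on a background of 3.42 times the floor, and the other 2 had folds of 5.64 and 5.69. The unshared isolated peaks nearest to the limit were a pair on chromosome 1 (75264969 to 75265141 and 75314956 to 75315165), 50011 bp apart with 12 and 8 fragments, and one on chromosome 2 (14824925 to 14825166) at 50062 bp with 12 fragments.

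The smallest overlaps were 4 bp on chromosome 13 (24408207 to 24408384), 5 bp on chromosome 11 (97940092 to 97940270) and 13 bp on chromosome 11 (98079210 to 98079396). Summits there were 233, 290 and 157 bp apart. The nearest misses were on chromosome 5 (72921710 to 72922193), where the intervals touched with a gap of 0, on chromosome 1 (100170010 to 100170188) with 1 bp between them and on chromosome 16 (25703074 to 25703275) with 9 bp. Their summits were 182, 258 and 165 bp apart, so these last 3 differ from the first 3 in a few bases of interval.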

How the data were processed

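The submitters' processing notes name Bowtie 1.2.2 and hg19. Which program called the peaks, at which threshold and against which control, is not given in the sources used here. The authors deposited 1 peak list per antibody, with the fold (a ratio of summit to local background) and the p-value and q-value of the summit as −log10. The deposited score column was not used, and neither was the Input sample.

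Summit depth k and background λ were taken from fold = (k + 1)/(λ + 1) and p = the Poisson tail above k. A whole-number k met the −log10 p of 100% of peaks within 0.001. A background within 0.1% of the lowest was put at the floor. Isolation used all Spindlin1 peaks of a chromosome. Differences of shares carry an interval joined from the Clopper-Pearson bounds of both shares. Neighbouring peaks are not independent, so intervals are likely too narrow.

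The members and the measures were chosen with earlier results of these data known. The regions named are the 10 of highest Spindlin1 fold and leading ones by C11orf84 fold, isolation, gap and nearness to the limits. Gene starts and base composition were planned and not analysed here, since no hg19 annotation or genome was used. Isolation and overlap were tested on simulated data. The tools were pandas 2.3.3, SciPy 1.17.1, NumPy 2.4.6, matplotlib 3.10.9 and Python 3.11.15.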

Additional observations from a re-analysis of the deposited data

Results flagged for a closer look

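Chromosome X was outside the comparisons. Of its 761 Spindlin1 peaks 128 were isolated by the same 50 kb measure, and 51 of them overlapped a C11orf84 peak (39.8%, exact 95% interval 31.3 to 48.9). They are listed because the comparisons left this chromosome out, and the overlap is a description, since it is also what chose the regions of the other chromosomes. The shared ones had a median depth of 11 fragments and the unshared ones of 10.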

How the results depend on the processing

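No paired analysis was possible because each antibody has 1 library, and no replicate could be left out. Of 33 alternatives 12 stayed within the counting interval of the reported value, 21 moved out of it and 0 changed sign. Shares and summit distances cannot change sign, so the last count bears on the differences alone. Among these, the difference in median fold fell to 0 at a −log10 q of at least 10. The share of isolated peaks that overlapped, 40.1%, was 42.8% and 34.8% with isolation distances of 20 and 200 kb, 32.3% with at least 50% of both intervals and 36.0% with summits at most 200 bp apart. It was 44.2% and 31.4% when both lists were first reduced to a −log10 q of at least 5 and of at least 10 and isolation was measured anew, 30.4% at the floor and 36.9% without raised background. Where no C11orf84 summit lay within 50 kb beyond the overlapping one, an alternative chosen after seeing the data, it was 36.3%. The difference in median fold between shared and unshared isolated peaks, 0.58, was 0.80 with 50% of both intervals, 0.35 and 0 at a −log10 q of at least 5 and 10, 1.03 at the floor and 0.74 without raised background. After the filter at 10 the sets were 895 shared and 1959 unshared peaks, isolated anew. Why the difference was 0 there was not tested. The difference in share between isolated peaks and the others was −29.1 and −35.1 percentage points at 20 and 200 kb, and −27.2 points when weighted to the depths of the isolated peaks. The rise with depth, 57.3 points between the deepest and the shallowest group, was 44.4 points between groups of equal size by −log10 p. The median summit distance of 43 bp was 28 bp at a −log10 q of at least 10. The share of shared regions with a lone C11orf84 summit, 44.0% within 50 kb, was 60.8% within 20 kb and 18.8% within 100 kb, since the count depends on the distance searched. For the other changes the cause was not tested. Alternatives on gene starts and base composition were not run. The shallowest peak of either list had 6 fragments, so occupancy below that depth cannot be read.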
